A study of Mus musculus with 8 samples.

Results

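The 10 genes described here encode amino acid transporters of the plasma membrane: Slc7a5, Slc3a2, Slc7a11, Slc7a1, Slc7a3, Slc1a4, Slc1a5, Slc38a1, Slc38a2 and Slc6a9. They were found by gene symbol in the FPKM table (fragments per kilobase of transcript, scaled to sequencing depth, a level per length) and joined by Ensembl identifier to the raw read counts. All 10 matched 1 gene each. Of these, 9 were among the 15580 genes with a mean normalised count above 20, which were tested, and Slc7a3 was below that limit.

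The measurements are RNA-seq of the mouse (C57B6) pituitary neuro-intermediate lobe, the dissected tissue that holds the melanotropes of the intermediate lobe together with the neural lobe. There were 8 libraries, 2 for each of 4 genotypes, and each library was a pool of 5 lobes, from males of 3 months per the study's methods. WT mice carried no transgene. POMC_ACreb3l2 mice carried ACreb3l2, an acidic dominant negative form of the transcription factor Creb3l2, POMC_AXBP1 mice carried the matching form of XBP1, and POMC_ACreb3l2/AXBP1 mice, called double transgenic here, carried both. In an acidic dominant negative the DNA-binding basic region of a bZIP factor is replaced by an acidic stretch, so that it dimerises with the endogenous factor and keeps it off DNA. Both transgenes were driven by the Pomc promoter, which is active in melanotropes and in corticotropes of the anterior lobe. The labels do not name the transgenic line, so line and transgene cannot be told apart here. The pools are separate samples of one genotype, and the p-values measure the spread between pools.

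Total counts were between 28256086 and 37988912 per library. Pomc, the defining melanotrope transcript, took 10.5% and 14.6% of all counts in WT libraries, 11.8% and 10.6% with ACreb3l2 alone, 9.77% and 11.2% with AXBP1 alone and 8.76% and 6.91% in double transgenic lobes, so this melanotrope marker was high in every library. The lobes also held RNA of the anterior lobe: the summed FPKM of 8 anterior lobe markers (Gh and Prl among them) was between 5666 and 7995 in WT and between 2538 and 2735 in AXBP1, and its part in the AXBP1 comparisons was not tested. In bulk tissue, fewer cells of a type and less RNA per cell cannot be told apart.

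Amino acids enter cells through carriers with overlapping substrates. Slc3a2 (CD98, 4F2hc) is a glycoprotein heavy chain that carries several light chains to the cell surface, among them Slc7a5 (LAT1), which exchanges large neutral amino acids such as leucine, and Slc7a11 (xCT), which exchanges cystine for glutamate and supplies cysteine for glutathione. Slc7a1 and Slc7a3 are cationic amino acid transporters for arginine and lysine, Slc1a4 and Slc1a5 exchange small neutral amino acids (Slc1a5 being a main route for glutamine), Slc38a1 and Slc38a2 take up glutamine and alanine with sodium, and Slc6a9 is a glycine transporter. Many of these genes are known targets of Atf4, the bZIP factor of the amino acid response, which binds with C/EBP partners to a composite element, while Creb3l2 and XBP1 are bZIP factors that bind motifs with an ACGT core.

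The RefSeq promoter table (GRCm38.p6) held 6 of the 10 genes with 9 start sites, each as 250 bases before and 50 after the start. Slc7a11, Slc7a1, Slc1a4, Slc3a2, Slc38a2 and Slc6a9 had an entry, and Slc7a5, Slc7a3, Slc1a5 and Slc38a1 are named only. The motifs searched on both strands were TGACGT and CACGTC for the ACGT core, TGATGCAA and TGATGAAA for the C/EBP-ATF element, and TGACNNNGC for the antioxidant response element that NRF2 binds. TGACGT and TGACNNNGC share their first 4 letters and can overlap. The Slc7a11 promoter is shown because it is the only one of these 9 with a pair of TGATGCAA matches, at -66 and, reversed, at -47 from the start. The first of 2 Slc7a1 start sites is shown, the second having no match, because Slc7a1 had the largest change of the tested members in ACreb3l2/AXBP1 against WT. The Slc1a4 window spans the start site, with a reversed TGATGCAA at -4, and a second window holds a reversed TGACGT at -135. Capitals mark the matches, and all sequences run in the direction of the gene.
Slc7a11, chr3:50443614-50443863, minus strand: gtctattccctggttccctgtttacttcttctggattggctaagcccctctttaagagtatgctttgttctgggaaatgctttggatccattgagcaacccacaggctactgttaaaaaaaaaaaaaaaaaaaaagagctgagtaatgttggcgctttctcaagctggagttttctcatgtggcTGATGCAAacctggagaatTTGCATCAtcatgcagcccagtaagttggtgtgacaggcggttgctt
Slc7a1, chr5:148399905-148400154, minus strand: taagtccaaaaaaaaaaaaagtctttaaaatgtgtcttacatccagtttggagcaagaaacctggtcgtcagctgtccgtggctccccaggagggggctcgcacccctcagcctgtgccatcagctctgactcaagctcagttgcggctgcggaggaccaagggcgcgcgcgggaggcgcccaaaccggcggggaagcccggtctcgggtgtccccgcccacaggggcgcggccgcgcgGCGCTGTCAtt
Slc1a4, chr11:20332699-20332728, minus strand: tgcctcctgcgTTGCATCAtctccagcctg
Slc1a4, chr11:20332830-20332859, minus strand: ggacctgggaaACGTCAgggaggtggggaa
TGATGCAA occurred in 0.895% of all 32851 promoters in the table, TGATGAAA in 1.02%, TGACGT in 7.51%, CACGTC in 6.38% and TGACNNNGC in 12.4%. In Slc7a1 the match was TGACNNNGC, reversed, at -11. Slc38a2 had a TGACNNNGC match at -27, and Slc6a9 had one at the second and one at the third of its 3 starts. No listed motif was found in the Slc3a2 window, and neither TGATGAAA nor CACGTC in any of the 9. These matches are letters in a window and were not tested for binding.

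In WT lobes the transporters spanned a wide range of levels. By mean FPKM the order was Slc3a2 (54.7), Slc38a1 (41.3), Slc38a2 (23.3), Slc7a1 (22.8), Slc1a4 (21.6), Slc7a5 (11.2), Slc6a9 (7.31), Slc1a5 (4.56), Slc7a11 (0.803) and Slc7a3 (0.300). The WT libraries of Slc38a2 (25.2 and 21.5 FPKM), Slc7a1 (19.7 and 25.9) and Slc1a4 (17.7 and 25.4) overlapped, so the order among these 3 was within their spread, while the libraries of every other pair of neighbours in the order did not overlap. Slc3a2 was above 91.6% of all tested genes in WT and Slc7a11 above 12.5%. The heavy chain Slc3a2 had 5.42 and 4.57 times the FPKM of its light chain Slc7a5 in the WT libraries, and 58.9 and 77.2 times that of Slc7a11.

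**Figure D1:**
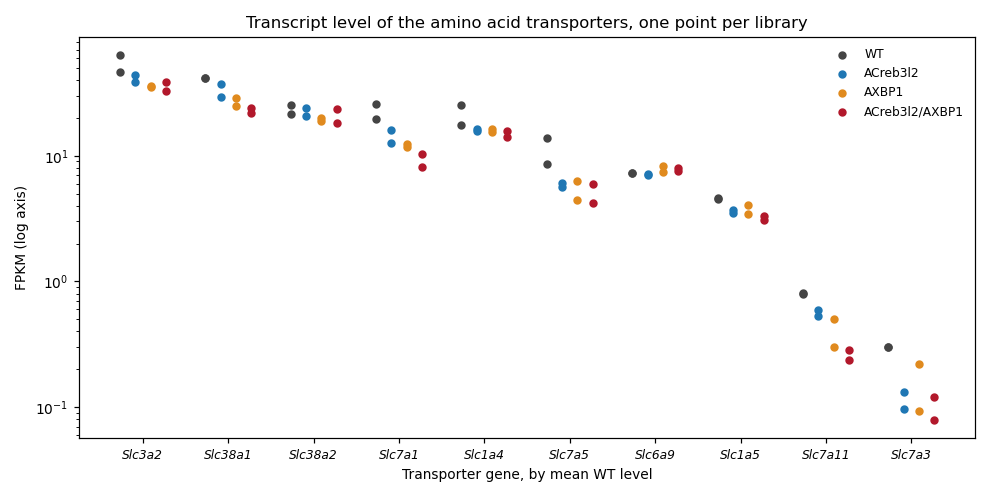
FPKM of each transporter gene (log axis, 1 point per library, genes ordered by mean WT level, colours for the 4 genotypes). The levels run from Slc3a2 at 54.7 FPKM in WT to Slc7a3 at 0.300, and for every gene but Slc38a2 and Slc6a9 all transgenic points lie under both WT points. By limma on FPKM the median log2 change of all genes in AXBP1 was itself -0.16 from WT.

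Each transgenic genotype was then compared with WT, to ask how blocking Creb3l2, XBP1 or both in POMC cells moved these transcripts. In ACreb3l2/AXBP1 lobes 4 of the 9 tested transporters fell (edgeR quasi-likelihood test, Benjamini-Hochberg adjusted p under 0.05): Slc7a1, Slc38a1, Slc3a2 and Slc1a5. Of all tested genes 6.99% were called lower in that comparison. In ACreb3l2 lobes 0 of 9 passed, with 2.5% of all genes called lower, and in AXBP1 lobes 0 of 9 passed, with 0% of all genes called lower. In the same order (double transgenic, ACreb3l2, AXBP1), unadjusted p-values were under 0.05 for 7, 6 and 4 of the 9, against 29.7%, 16.8% and 9.97% of all genes. DESeq2 called 7, 1 and 2 of them lower, against 8.86%, 3.74% and 0.347% of all genes, and limma on FPKM called 3, 0 and 0 lower, against 5.82%, 1.37% and 0.0529%. Without WT replicate 2 the double transgenic count was 1, without double transgenic replicate 2 it was 2, and without WT replicate 1 it was 6. Over all genes the calls in either direction were 1566 with all libraries and 353, 215 and 2010 in these fits. The median log2 change of the 9 was -0.62, -0.43 and -0.32, where the median of all tested genes was 0.01, 0.01 and 0.00. Both transgenic libraries were under both WT libraries for 7, 7 and 5 of the 9, against 28.7%, 23.2% and 23.8% of all tested genes. The 3 comparisons share the WT libraries.

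**Figure D2:**
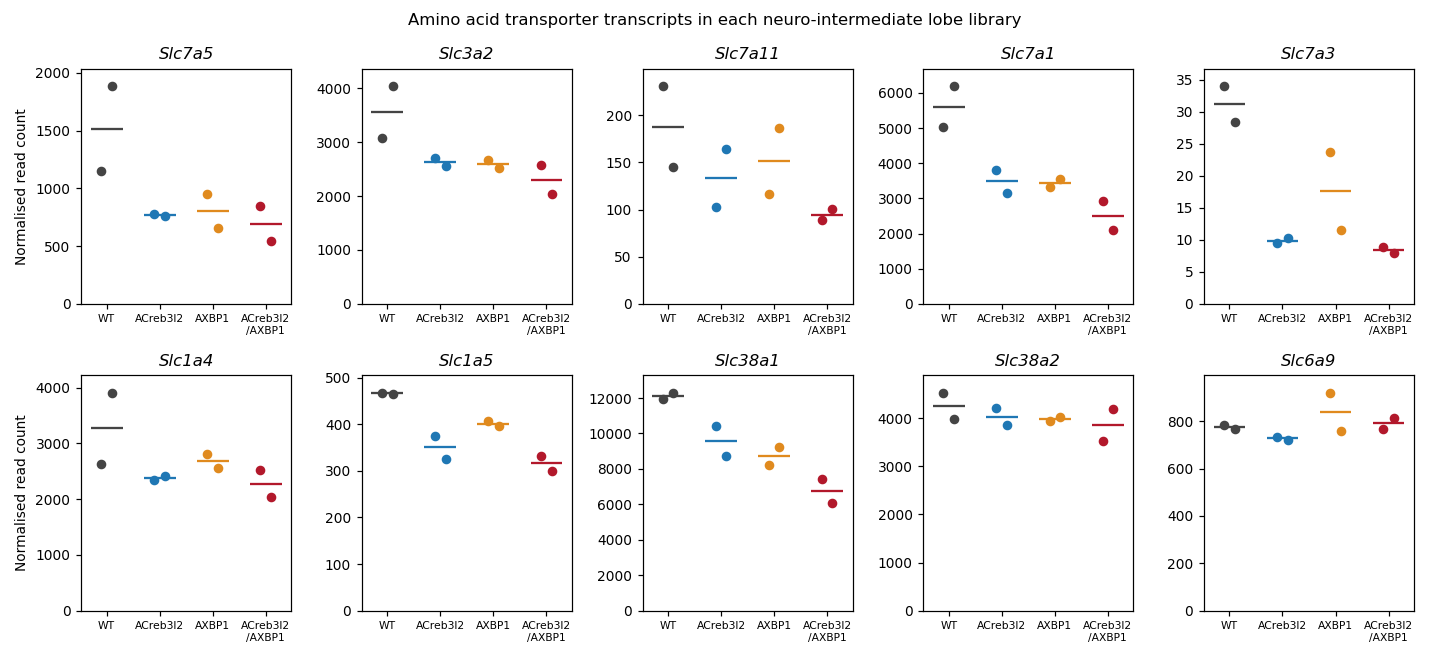
Normalised read count of each transporter in each library (linear axes from 0; points are libraries and lines are group means). In ACreb3l2/AXBP1 both points are under both WT points for Slc7a5, Slc3a2, Slc7a11, Slc7a1, Slc7a3, Slc1a4, Slc1a5 and Slc38a1, and overlap WT for Slc38a2 and Slc6a9.

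Slc7a1 (chr5:148327410-148399904, minus strand, GENCODE M21 on GRCm38, as for all gene positions here), the carrier for arginine and lysine, had the largest log2 change of the tested members in ACreb3l2/AXBP1 against WT, ahead of Slc7a5 by less than the standard error of either, while in each single transgenic genotype Slc7a5 had the larger change. Its normalised read count (reads divided by each library's effective size and multiplied by the mean size) was 5017 and 6198 in WT libraries, 3819 and 3158 with ACreb3l2 alone, 3326 and 3538 with AXBP1 alone and 2921 and 2091 in double transgenic lobes. All 6 transgenic libraries were under both WT libraries, both double transgenic libraries were under all 4 single transgenic ones, and the single transgenic groups overlapped. In ACreb3l2/AXBP1 the log2 change was -1.16 (SE 0.172, edgeR adjusted p = 0.00758), which left 44.7% of the WT mean. In ACreb3l2 it was -0.68 (adjusted p = 0.0817) and in AXBP1 -0.71 (adjusted p = 0.474), neither of which passed. The call in double transgenic lobes held in 18 of 19 alternative analyses, and without WT replicate 2 the change was -1.01 (adjusted p = 0.0535).

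Slc7a3 (chrX:101079210-101086020, minus strand), the other cationic transporter, had few reads, with 35 and 26 reads in WT libraries, 11 and 9 with ACreb3l2 alone, 24 and 10 with AXBP1 alone and 9 and 9 in double transgenic lobes. All transgenic libraries were under both WT libraries, AXBP1 replicate 1 by the least. It did not enter the test because of its low mean. In a fit of all genes with any read, its log2 change was -1.65 (SE 0.434, edgeR adjusted p = 0.00497) in ACreb3l2 and -1.88 (SE 0.441, adjusted p = 0.000476) in ACreb3l2/AXBP1. In AXBP1 it was -0.81 (adjusted p = 0.509). That fit called more genes than the filtered one, with 1455 against 473 in ACreb3l2, 3209 against 1566 in ACreb3l2/AXBP1 and 628 against 0 in AXBP1. For Slc7a5, with a wide spread between WT libraries, its edgeR adjusted p in ACreb3l2/AXBP1 was 2.1e-17, against 0.0729 in the filtered fit. The p-values of the unfiltered fit are thus not comparable with those of the filtered one, and those of Slc7a3 are not read as a call. On the log2(FPKM + 0.1) scale the change in double transgenic lobes was -1.01 (limma adjusted p = 0.192) and did not pass.

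Slc38a1 (chr15:96571418-96642913, minus strand), a sodium-coupled carrier for glutamine, fell in double transgenic lobes. Its normalised count was 11930 and 12290 in WT libraries, 10430 and 8718 with ACreb3l2 alone, 8221 and 9245 with AXBP1 alone and 7422 and 6097 in double transgenic lobes. The WT libraries were close to each other, every transgenic library was under them, and the double transgenic libraries were the lowest of the 8. The log2 change in double transgenic lobes was -0.84 (SE 0.121, edgeR adjusted p = 0.00411), called in 19 of 19 alternatives, and left 55.8% of the WT mean. In ACreb3l2 it was -0.34 (adjusted p = 0.186) and in AXBP1 -0.47 (adjusted p = 0.474). Its relative Slc38a2 (chr15:96687392-96699730, minus strand), with overlapping substrates, did not pass, with 4526 and 3976 in WT libraries, 4220 and 3850 with ACreb3l2 alone, 3941 and 4035 with AXBP1 alone and 3534 and 4193 in double transgenic lobes, and with overlap of these counts in all 3 comparisons. The log2 change of Slc38a2 was -0.14 in double transgenic lobes with a 95% confidence interval from -0.37 to 0.09 (edgeR adjusted p = 0.399).

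Slc3a2 (chr19:8706882-8723369, minus strand), the shared heavy chain, fell in ACreb3l2/AXBP1. Its normalised count was 3071 and 4042 in WT libraries, 2714 and 2565 with ACreb3l2 alone, 2677 and 2512 with AXBP1 alone and 2567 and 2046 in double transgenic lobes. WT replicate 2 was the highest library and all transgenic libraries were under both WT ones, but the 3 transgenic groups were close to each other. The log2 change was -0.62 (SE 0.142, edgeR adjusted p = 0.0285) in ACreb3l2/AXBP1, -0.43 (adjusted p = 0.163) in ACreb3l2 and -0.45 (adjusted p = 0.474) in AXBP1. The call held in 13 of 19 alternatives. Without WT replicate 2 the change was -0.42 (adjusted p = 0.138) and without ACreb3l2/AXBP1 replicate 2 it was -0.48 (adjusted p = 0.202).

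The light chain Slc7a5 (chr8:121881150-121907694, minus strand) had a wide WT spread and did not pass the edgeR test in any genotype. Its normalised count was 1148 and 1886 in WT libraries, 780.0 and 764.3 with ACreb3l2 alone, 949.9 and 655.8 with AXBP1 alone and 845.5 and 542.4 in double transgenic lobes. All 6 transgenic libraries were under WT replicate 1, and WT replicate 2 had 1.64 times the count of replicate 1, the largest ratio between the WT libraries among the 10 genes. The log2 change was -1.13 (SE 0.315, edgeR adjusted p = 0.0729) in ACreb3l2/AXBP1, which did not pass, with -0.97 (adjusted p = 0.192) in ACreb3l2 and -0.91 (adjusted p = 0.492) in AXBP1. DESeq2 gave an adjusted p of 0.0277 in ACreb3l2/AXBP1, and without WT replicate 1 the change was -1.45 (edgeR adjusted p = 0.0321) and without ACreb3l2/AXBP1 replicate 1 it was -1.48 (adjusted p = 0.0459). Without WT replicate 2 it was -0.73 (adjusted p = 0.268) and without ACreb3l2/AXBP1 replicate 2 it was -0.85 (adjusted p = 0.33), so the size rested on which libraries were kept. The FPKM ratio of Slc3a2 to Slc7a5 was 5.42 and 4.57 in WT and between 5.65 and 8.02 in the 6 transgenic libraries, all above WT.

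Slc7a11 (chr3:49892526-50443614, minus strand), the cystine light chain, differed between the 2 deposited tables. Its normalised count was 231.2 and 145.1 in WT libraries, 102.3 and 164.5 with ACreb3l2 alone, 116.6 and 187.1 with AXBP1 alone and 89.0 and 100.3 in double transgenic lobes. Both double transgenic libraries were under both WT libraries, as was 1 library of each single transgenic group, while the other lay between the WT libraries. The log2 change in double transgenic lobes was -0.99 (SE 0.321, edgeR adjusted p = 0.0804), which did not pass. By FPKM the values were 0.792 and 0.814 in WT libraries, 0.531 and 0.597 with ACreb3l2 alone, 0.303 and 0.499 with AXBP1 alone and 0.238 and 0.283 in double transgenic lobes, with all transgenic libraries under both WT ones. The AXBP1 mean was 80.7% of WT by normalised count and 50.0% by FPKM. Limma on log2(FPKM + 0.1) gave an ACreb3l2/AXBP1 change of -1.33 (adjusted p = 0.0613), which did not pass, while limma on log2(FPKM + 1) called it at -0.52 (adjusted p = 0.0452) and DESeq2 called it on the counts (adjusted p = 0.0259). Without WT replicate 1 the edgeR change was -0.61 (adjusted p = 0.261).

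The 2 small neutral exchangers differed in level and in spread. Slc1a5 (chr7:16781340-16798274, plus strand) had 467.2 and 465.7 normalised counts in WT libraries, 375.8 and 325.6 with ACreb3l2 alone, 406.2 and 396.0 with AXBP1 alone and 332.3 and 300.0 in double transgenic lobes. Every transgenic library was under both WT libraries, AXBP1 by the least, and the log2 change in double transgenic lobes was -0.56 (SE 0.121, edgeR adjusted p = 0.0211), called in 12 of 19 alternatives. In ACreb3l2 it was -0.41 (adjusted p = 0.116) and in AXBP1 -0.22 (adjusted p = 0.554). Without WT replicate 2 the ACreb3l2/AXBP1 change was -0.57 (adjusted p = 0.0901). Slc1a4 (chr11:20302180-20332713, minus strand) had 2640 and 3907 in WT libraries, 2338 and 2409 with ACreb3l2 alone, 2802 and 2564 with AXBP1 alone and 2519 and 2036 in double transgenic lobes. AXBP1 overlapped WT for this gene by normalised count (by FPKM it did not, at 16.4 and 15.4 against 17.7 and 25.4), the other transgenic groups did not, and WT replicate 2 was again the highest. The log2 change of Slc1a4 in double transgenic lobes was -0.52 (SE 0.177, edgeR adjusted p = 0.0958) and did not pass. It was -0.22 (adjusted p = 0.403) without WT replicate 2 and -0.78 (adjusted p = 0.00789, called) without WT replicate 1, and DESeq2 called it (adjusted p = 0.0136).

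Slc6a9 (chr4:117834506-117875198, plus strand), the glycine transporter, had 782.9 and 768.9 normalised counts in WT libraries, 734.5 and 722.0 with ACreb3l2 alone, 919.2 and 758.6 with AXBP1 alone and 767.4 and 814.9 in double transgenic lobes. The transgenic groups overlapped WT, except that both ACreb3l2 libraries were just under both WT libraries. The log2 change in double transgenic lobes was 0.03 with a 95% confidence interval from -0.22 to 0.27 (edgeR adjusted p = 0.888). In the GENCODE M21 annotation of the same build, exons of Slc6a9 share 1429 bases with Ccdc24, 511 with Gm17114 and 46 with B4galt2 on the opposite strand, and while the study's methods name a stranded library kit, the sources used here do not state whether reads were counted by strand, so reads of these genes may not be separable. No exon of the other 9 members overlapped an exon of another gene.

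**Figure D3:**
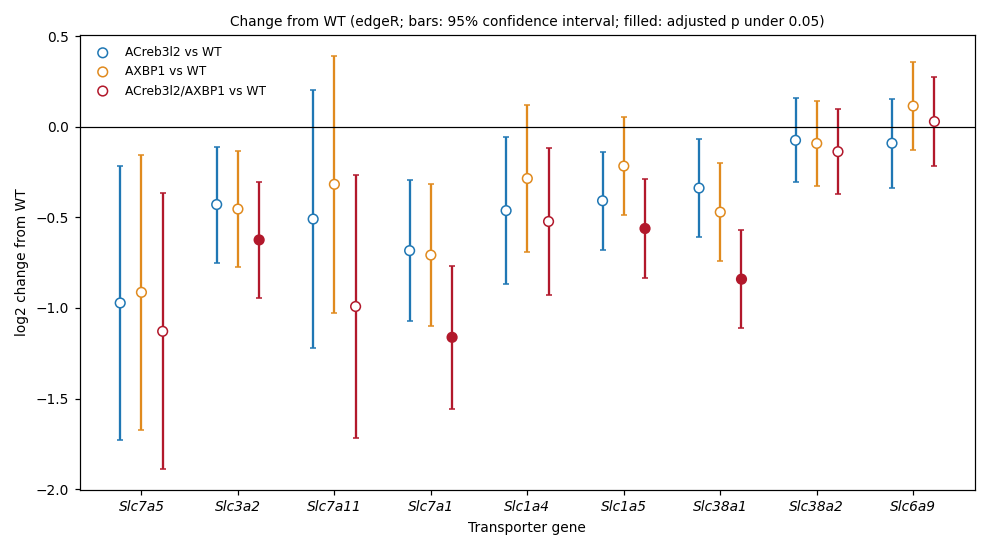
Log2 change from WT of the 9 tested transporters in the 3 transgenic genotypes (points, with 95% confidence intervals of the edgeR fit; filled points have an adjusted p under 0.05). The 4 filled points are all in ACreb3l2/AXBP1, from -1.16 for Slc7a1 to -0.56 for Slc1a5, and the intervals of Slc38a2 and Slc6a9 include 0 in each genotype.

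The transgenic genotypes were also compared with each other, to ask whether the 2 factors differed and whether both together differed from one. Between ACreb3l2 and AXBP1, 0 of 9 members passed and 0 had an unadjusted p under 0.05 (0.68% of all genes were called lower in ACreb3l2, and 9.49% had an unadjusted p under 0.05). The log2 difference of Slc7a1 was 0.02 (95% confidence interval -0.37 to 0.41), of Slc3a2 0.02 (-0.30 to 0.35) and of Slc38a1 0.13 (-0.14 to 0.40). None of these intervals excluded a difference of either sign. Between ACreb3l2/AXBP1 and AXBP1, 0 of 9 passed and 3 had an unadjusted p under 0.05 (0.616% of all genes called lower, 11.1% with an unadjusted p under 0.05). Between ACreb3l2/AXBP1 and ACreb3l2, 0 of 9 passed and 2 had an unadjusted p under 0.05 (0% of all genes called lower, 7.14% with an unadjusted p under 0.05). DESeq2 called 0, 0 and 1 in these 3 comparisons, the 1 being Slc38a1, and limma on FPKM called 0 in each, where over all genes DESeq2 called 258, 283 and 36 and limma 29, 29 and 3. Slc38a1 had a log2 difference between ACreb3l2/AXBP1 and ACreb3l2 of -0.50 (unadjusted p = 0.00196, edgeR adjusted p = 0.688) and from AXBP1 of -0.37 (adjusted p = 0.28). For Slc7a1 these differences were -0.48 (adjusted p = 0.688) and -0.45 (adjusted p = 0.379). In both genes the libraries did not overlap in either comparison. Of the 9 members, 5 lay lower without overlap against AXBP1, and 3 lay lower and 1 (Slc6a9) higher against ACreb3l2. The share of all genes without overlap was not computed for these comparisons, so no added effect is read from it.

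A test of the interaction asked whether the change in the double transgenic differed from the sum of the single changes. It was called lower in 0% of all genes, and 0 of 9 members passed by edgeR, DESeq2 or limma, with 0 at an unadjusted p under 0.05 (2.48% of all genes). Of the 9 log2 interaction terms 7 were above 0, from 0.01 for Slc6a9 to 0.76 for Slc7a5 (95% confidence interval -0.32 to 1.83), where a value above 0 means a smaller fall than the sum. The term was 0.23 for Slc7a1 (-0.32 to 0.78) and -0.03 for Slc38a1 (-0.41 to 0.35).

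By summed FPKM the 10 transporters together had 172.0 and 203.6 in WT libraries, 155.1 and 134.3 with ACreb3l2 alone, 126.2 and 127.9 with AXBP1 alone and 123.1 and 116.1 in double transgenic lobes. The transgenic sums were all under both WT sums. So were those of the mTORC1 amino acid sensing genes described below, at 555.2 and 556.1 in WT and between 472.4 and 526.6 in transgenic libraries. The median log2 change of that list was 0.01 in double transgenic lobes. By limma on FPKM the median of all genes in AXBP1 was -0.16 from WT. A lower FPKM sum is thus not particular to these transporters. Marker levels of the cell types in the lobe also differed between these libraries. The summed FPKM of 7 melanotrope markers was between 99790 and 144000 in WT and between 61570 and 73870 in ACreb3l2/AXBP1, and 2 of the 7 (Tbx19 and Scg2) fell there, where 6.99% of all genes were called lower, 4 of the 7 had both libraries under both WT libraries (28.7% of all genes) and the median log2 change was -0.57. Nearly all of this sum was Pomc, at 97380 and 141200 FPKM in WT and 71910 and 59960 in ACreb3l2/AXBP1, with a log2 change of -0.84 (edgeR adjusted p = 0.0613) that did not pass. Pcsk2, a prohormone convertase, had both libraries under WT (114300 and 69220 against 114900 and 175600 normalised counts, log2 change -0.66, adjusted p = 0.162) and did not pass, and Pax7 (-0.08), Drd2 (-0.19) and Pcsk1n (-0.04) overlapped WT. In AXBP1 the melanotrope sum, at 79680 and 95260, was also under both WT sums, and in ACreb3l2, at 114700 and 96820, it overlapped WT. By normalised count, Pomc with AXBP1 alone (3166000 and 3730000) overlapped WT (3460000 and 5181000). The sum of 8 pituicyte and astrocyte markers was between 198.8 and 293.0 in WT and between 292.7 and 376.5 in ACreb3l2/AXBP1, ranges that overlapped narrowly. There 8 of 8 markers were higher by fitted change (median log2 change 0.47) and 6 had both libraries above both WT libraries. The share of all genes with both libraries above WT was not computed, so how unusual such counts are cannot be told. Of the 8, 1 (Aqp4) rose, where 3.06% of all genes were called higher, and 5 had an unadjusted p under 0.05 (29.7% of all genes). DESeq2 called 2 of them, and 2038 of all genes in either direction. In ACreb3l2 this sum, at 349.4 and 296.0, was above both WT sums, with 8 of 8 markers higher by fitted change and 0 passing the edgeR test (3 at an unadjusted p under 0.05, against 16.8% of all genes). DESeq2 called 1 of the 8 and limma on FPKM 0, where over all genes they called 751 and 224 in either direction. That of 9 endothelial markers was between 51.4 and 64.7 in WT and between 70.4 and 93.7 in ACreb3l2/AXBP1. There 9 of 9 were higher by fitted change (median log2 change 0.56) and 9 had both libraries above both WT libraries. None passed the edgeR test, 4 had an unadjusted p under 0.05 (29.7% of all genes) and DESeq2 called 2 higher, where it called 2038 of all 15580 genes in either direction. With AXBP1 alone 9 of 9 endothelial (median 0.45) and 8 of 8 fibroblast and pericyte markers (median 0.31) were higher, and none passed the edgeR test. With ACreb3l2 alone 5 endothelial markers were higher and 4 lower (median 0.01). The WT and double transgenic ranges also overlapped for the summed FPKM of macrophage and microglia, fibroblast and pericyte, erythroid and anterior lobe markers. The part of these shifts in the transporter changes was not tested.

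**Figure D4:**
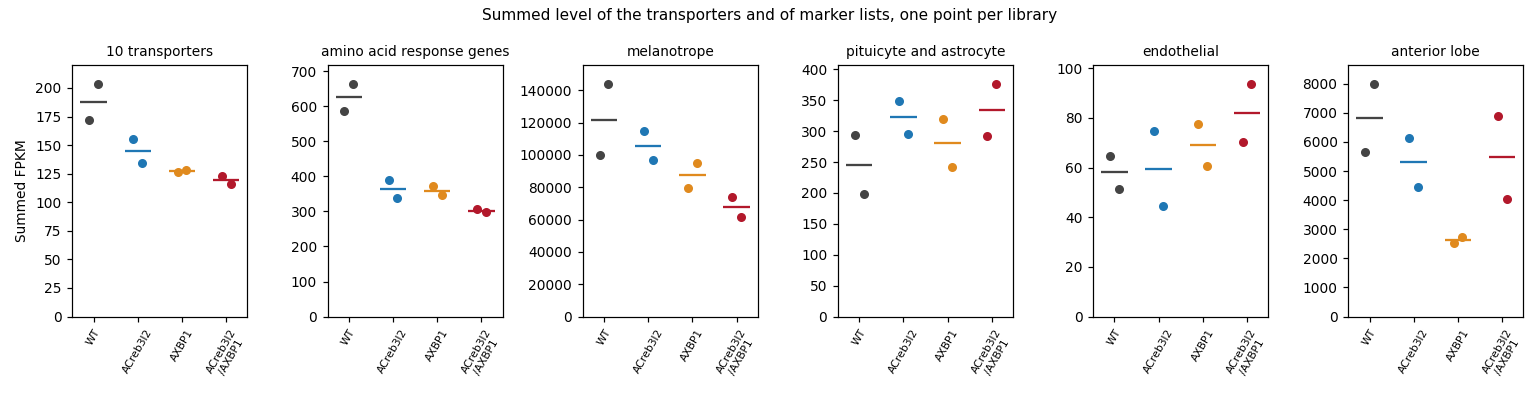
Summed FPKM per library of the 10 transporters, of amino acid response genes and of 4 marker lists (linear axes from 0; points are libraries and lines are group means). The transporter and melanotrope sums are lowest in double transgenic lobes (116.1 to 123.1 and 61570 to 73870), and the anterior lobe sum is lowest in AXBP1 (2538 to 2735).

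The transporters sit in a pathway of which 4 other lists were read in the same fit. Of 28 amino acid response genes, the set around Atf4 that cells turn on when amino acids are short, 26 were tested. With ACreb3l2 alone 13 of 26 fell, with AXBP1 alone none passed, and in double transgenic lobes 18 fell, where 2.5%, 0% and 6.99% of all tested genes were called lower. None rose in any of the 3. Their median log2 change was -0.73, -0.54 and -0.81, and with AXBP1 alone 19 of the 26 had an unadjusted p under 0.05 (9.97% of all genes), DESeq2 called 13 lower (0.347% of all genes) and limma on FPKM 4 (0.0529%). Atf4 itself had 7729 and 8435 normalised counts in WT libraries, 4434 and 4079 with ACreb3l2 alone, 4675 and 4605 with AXBP1 alone and 3466 and 2820 in double transgenic lobes, and its log2 change was -0.92 (edgeR adjusted p = 0.0021), -0.80 (adjusted p = 0.0769) and -1.36 (adjusted p = 0.000364). All transgenic libraries were under WT and the double transgenic libraries were the lowest. In double transgenic lobes the log2 change was -1.14 for Asns, which makes asparagine, -2.22 for Trib3, an inhibitor of Atf4 signalling, and -2.47 for Chac1, which degrades glutathione. Aldh1l2, of mitochondrial folate metabolism, fell with ACreb3l2 alone (log2 change -2.95) and in double transgenic lobes (-2.97). Aldh1l2 was also lower with ACreb3l2 alone than with AXBP1 alone (log2 difference -1.55, edgeR adjusted p = 0.00745), as was Pycr1, of proline synthesis (-2.32, adjusted p = 0.0217). Exons of Aldh1l2 share 1056 bases with D10Wsu102e on the opposite strand, so the limit on strand given for Slc6a9 holds for it too. Among genes named below, that limit also holds for Slc38a10 (367 bases with Gm11769), Slc6a20a (563 with Gm17120) and Slc7a7 (232 with Oxa1l). Exons of Cebpg share 73 bases with Gm44836 on the same strand.

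Of 42 other amino acid transporters 27 were tested. With ACreb3l2 alone 1 fell, with AXBP1 alone none passed (4 had an unadjusted p under 0.05, and DESeq2 and limma called 0), and in double transgenic lobes 7 fell and 2 rose. Of all genes 2.5%, 0% and 6.99% were called lower in these comparisons, and 3.06% higher in the last. There DESeq2 called 7 lower and 1 higher, and limma on FPKM 3 lower and 0 higher of the 24 it tested, against 8.86% and 5.82% of all genes called lower by these tools. Their median log2 change in double transgenic lobes was -0.10. Slc38a10, an intracellular member of the Slc38 family, fell by 0.68 in ACreb3l2 (edgeR adjusted p = 0.00807) and by 0.84 in double transgenic lobes (adjusted p = 0.0025) on the log2 scale. Slc6a17, a vesicular neutral amino acid transporter with 11080 and 11460 normalised counts in WT, fell by 1.13 in double transgenic lobes (adjusted p = 0.0283) to 6164 and 4115. The other falls were in Slc7a14 (-0.75), Slc36a1 (-0.56), Slc6a20a (-1.03), Slc7a6 (-0.44), a light chain partner of Slc3a2, and Slc1a7 (-3.38), which had 51.5 and 58.9 normalised counts in WT and 8.90 and 1.77 in ACreb3l2/AXBP1. The 2 that rose were Slc6a15 (0.75), which carries neutral amino acids, and Slc38a11 (1.34), the latter from 21.4 and 14.2 normalised counts to 37.6 and 53.3.

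Of 12 glutathione and NRF2 genes, the other programme in which Slc7a11 is a known target, none passed the edgeR test in any of the 3 comparisons with WT, and unadjusted p was under 0.05 for 0 of them with ACreb3l2 or AXBP1 alone and for 7 in double transgenic lobes (16.8%, 9.97% and 29.7% of all genes). In double transgenic lobes DESeq2 and limma each called 1 of the 12 lower, against 8.86% and 5.82% of all genes. Nfe2l2, which encodes NRF2, had a log2 change of 0.14, 0.03 and 0.23, the last with an adjusted p of 0.0956. Of 24 genes of amino acid sensing by mTORC1, 1 fell in ACreb3l2, 0 passed in AXBP1 (2 at an unadjusted p under 0.05, 0 called by DESeq2 or limma) and 3 fell in ACreb3l2/AXBP1, where 2.5%, 0% and 6.99% of all genes were called lower. In ACreb3l2/AXBP1 DESeq2 called 3 lower and 1 higher, and limma on FPKM 2 lower. The 3 called by edgeR were Sec13, a subunit of GATOR2 that also forms COPII coats (-0.79 and -0.85), Flcn (-0.67) and Rraga (-0.43), a Rag GTPase. The median log2 change of the 24 was 0.01 in ACreb3l2/AXBP1. The 3 genes nearest to Slc7a1 by Euclidean distance over its 3 log2 changes from WT, among all tested genes, were Fam229a (0.03), Gm12070 (0.07) and Slc7a8 (0.09), another light chain partner of Slc3a2, whose change in double transgenic lobes was -1.08 (edgeR adjusted p = 0.0855).

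**Figure D5:**
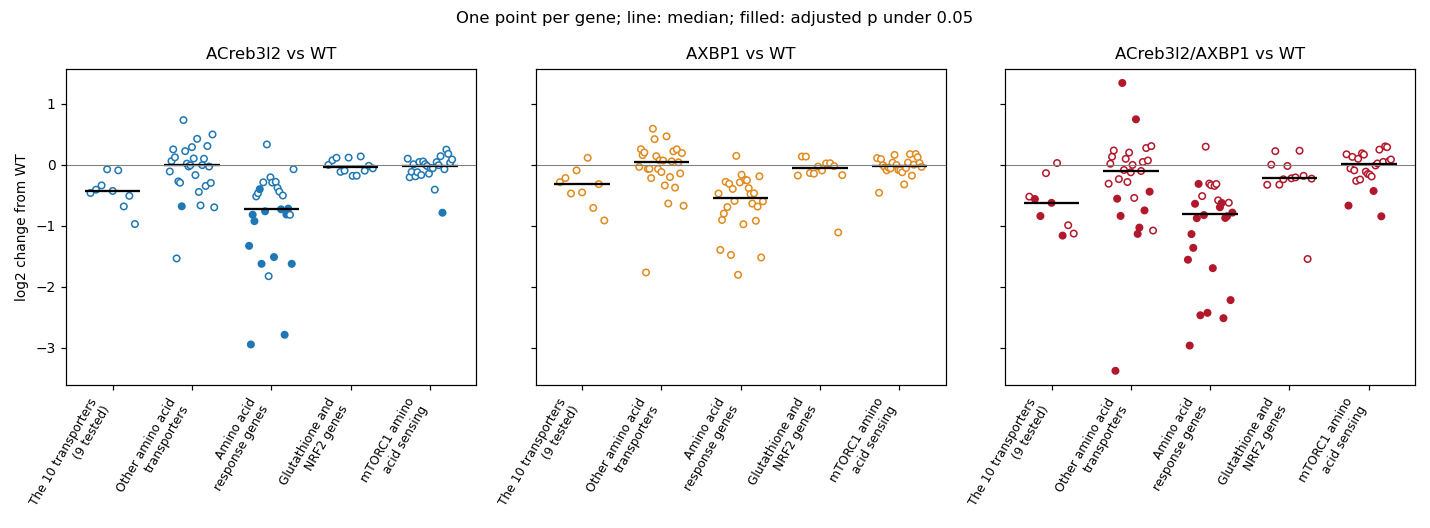
Log2 change from WT of each tested gene of the transporter group and of the 4 pathway lists, 1 panel per transgenic genotype (points are genes, lines are medians, filled points have an edgeR adjusted p under 0.05). The transporter median is -0.43, -0.32 and -0.62 across the panels, between the amino acid response genes (-0.73, -0.54 and -0.81) and the other transporters (-0.01, 0.04 and -0.10).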

How the data were processed

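RNA of pooled neuro-intermediate lobes was sequenced as 50 bp paired-end reads after ribosomal depletion, per the labels, whereas the study's methods name a stranded mRNA kit. The authors trimmed reads with Trimmomatic, aligned them to mm10 with Tophat and counted them per gene with HTSeq, and the deposited counts are raw whole numbers. A second table deposited by the authors holds FPKM values of the same 8 libraries. The annotation release and the strand setting of the counting are not given in the sources used here. All 8 count columns matched a sample by name.

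Counts were fitted with edgeR 4.0.16 (R 4.3.3; TMM factors, robust quasi-likelihood, a mean per genotype over all 8 libraries) for genes with a mean normalised count above 20, and p-values were adjusted over all 15580 genes. A gene was called at an adjusted p under 0.05. The fit was tested on simulated data. Alternatives were DESeq2 1.42.0, limma 3.58.1 on log2(FPKM + 0.1) or log2(FPKM + 1), other filters and factors, the compared groups only, a replicate block, and leaving out each library. Replicate libraries differed by more than counting noise in every genotype. Promoters came from RefSeq and gene models from GENCODE M21. The members and lists were chosen with earlier results of these data known. By rule all members were named, called genes of the pathway lists could be named, Atf4 and Nfe2l2 always were, and so were the 3 genes nearest to the member with the largest change in double transgenic lobes against WT. Marker genes and the genes of the closing section were named outside this rule, after their values were seen.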

Additional observations from a re-analysis of the deposited data

Results flagged for a closer look

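The tested members (9) and tested genes of the pathway lists (27 other transporters, 26 amino acid response, 12 glutathione and NRF2 and 24 mTORC1 genes) were examined. Among these, the libraries of 3 genes lay on one side of WT with AXBP1 alone and on the other side of ACreb3l2 when AXBP1 was added to it, without overlap in either comparison. No member was among them. The share of all genes that met this rule was not computed, so 3 is not read as unusual. Each group held 2 libraries, so no test of a single outlying library was made. For Slc7a7, a light chain partner of Slc3a2, the normalised count was 168.0 and 180.0 in WT, 215.5 and 181.3 with AXBP1, 235.6 and 255.9 with ACreb3l2 and 234.4 and 196.2 with both, and the interaction term on the log2 scale was -0.38 (edgeR adjusted p = 0.9997). For Cebpg, a C/EBP partner of Atf4, it was 0.40 and for Psat1, of serine synthesis, 0.52 (adjusted p = 0.9997 for both), so none of the 3 passed the test of the difference. The change of Psat1 when AXBP1 was added to ACreb3l2 was 0.03 on the log2 scale, less than its standard error of 0.115.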

How the results depend on the processing

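The number of transporters called depended on the processing. In double transgenic lobes against WT (4 called) it was 8 of 10 (Slc7a3 included) without a filter on low counts, 7 with DESeq2, 2 with limma on unfiltered FPKM and 2 when only the compared groups were fitted, where the calls over all genes went from 1566 to 3209 of 29547, 2038, 402 of 27520 and 654, and between 1 (without WT replicate 2) and 6 (without WT replicate 1) when one library was left out. In ACreb3l2 against WT (0 called) it was 6 without a filter, 1 with DESeq2 and between 0 and 2 with one library left out, the 2 being without WT replicate 1. In AXBP1 against WT (0 called) it was 4 without a filter and 2 with DESeq2. Without a filter it was also 2 in double transgenic against AXBP1, 2 in double transgenic against ACreb3l2 (1 with DESeq2) and 1 for the interaction, that of Slc7a5, where that fit called 755, 513 and 126 of all genes against 97, 0 and 0. The cause was not tested. No called change reversed its direction. Scaling to library size alone moved the median of all tested genes in double transgenic lobes against WT from 0.01 to 0.17 on the log2 scale and the members' median from -0.62 to -0.46, and limma on FPKM moved the median of all genes in AXBP1 against WT to -0.16 and that of the members to -0.61.

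Replicate numbers were shared by the genotypes, but same-numbered libraries did not deviate together (correlations from -0.197 to 0.0887), so they share only a number. A fit with the replicate block called 4 members in double transgenic lobes against WT and 0 in the other comparisons. Since the correlation of WT with the double transgenic was below 0, a block with the double transgenic numbers exchanged was added after seeing the data, and it called 4 and 0 likewise. Depth limited Slc7a3, with 9 to 35 reads per library, which the filter left out.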
